A study of Mus musculus with 6 samples.

Results

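Interferon beta, the subunits of its receptor and the sensors and adaptors of foreign or misplaced nucleic acid were followed in D4M-3A cells, a mouse melanoma line. The genes were chosen by name: Ifnb1 as the ligand, Ifnar1 and Ifnar2 as the receptor subunits, Ifih1, Dhx58, Tlr3, Cgas and Zbp1 as the 5 sensors, and Mavs and Sting1 as the 2 adaptors. These 10 genes were read out of the 43043 genes listed for each sample by their names, a choice made with earlier results of these data known. RNA of 3 control samples (Ctrl) and 3 Nfkbiz knockout samples (Nfkbiz KO) was sequenced, and the only comparison is that between these groups. Nfkbiz encodes IκBζ, an atypical nuclear IκB protein that binds NF-κB subunits. Ctrl cells were transduced with an empty lentiviral CRISPR-Cas9 construct, and Nfkbiz KO cells with one directed at Nfkbiz. Both groups therefore carried a lentiviral construct and were grown in the same serum-containing medium with no added stimulus named. Whether the Nfkbiz KO cells are 1 clone or a pool is not given in the sources used here, and the study describes the samples of a group as independent experiments. Whether the samples of a group come from separate transductions is not given either. The intervals and p-values thus measure spread between samples, which may not include spread between separately made lines.

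Interferon beta is secreted when a cell detects nucleic acid in the wrong place, and it acts back on the same and neighbouring cells through the IFNAR1 and IFNAR2 receptor chains, JAK1 and TYK2 kinases and transcription factors that include STAT2 and IRF9. Double-stranded RNA is detected in the cytosol by RIG-I and MDA5 (Ifih1), which signal through MAVS, and in endosomes by TLR3, which signals through TRIF (Ticam1). DNA in the cytosol is detected by cGAS, whose cyclic dinucleotide product is bound by STING, and left-handed nucleic acid is bound by ZBP1, which can start cell death through RIPK3 and MLKL. Many of these sensors are themselves induced by interferon, as is IRF7.

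The Ifnb1 promoter is a classic switch element, in which NF-κB, IRF and AP-1 factors bind side by side. RefSeq promoters (250 bases before to 50 bases after the start) were held for Ifnb1, Ifnar1, Ifnar2, Ifih1, Mavs, Tlr3 and Cgas, 7 of the 10 genes. Entries for the other genes, Dhx58, Zbp1 and the STING gene, were missing. Each of the 7 promoters matched its chromosome of GRCm39 exactly and at 1 place, so that coordinates are on that build. All were searched on both strands for the core of the interferon-stimulated response element (ISRE, GAAANNGAAA), for the gamma-activated site (GAS, TTCNNNGAA) and for the consensus κB motif, with N any base. The shown stretches are those that hold a match, with the match in capitals, 5′ to 3′ on the strand of the gene.

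Ifnb1, chr4:88441112-88441231, minus strand, κB match: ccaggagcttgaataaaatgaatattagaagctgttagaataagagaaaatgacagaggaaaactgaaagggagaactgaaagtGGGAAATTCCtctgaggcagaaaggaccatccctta
Tlr3, chr8:45863609-45863638, minus strand, κB match: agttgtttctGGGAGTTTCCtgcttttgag
Ifih1, chr2:62476550-62476579, minus strand, ISRE match: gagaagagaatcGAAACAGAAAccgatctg
Ifnar2, chr16:91169446-91169475, plus strand, GAS match: ctgccaaggccTTCCTGGAAgaagagagta
Ifnar1, chr16:91282087-91282116, plus strand, GAS match: gggcgggggcgTTCACGGAAggggcggggc

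A κB match was held by 2 of the 7 promoter windows, Ifnb1 and Tlr3, against 4.51% of the 32851 mouse promoters of the same length. The ISRE core was held by 1 of the 7, Ifih1, against 3.44% of all promoters, and a GAS by Ifnar1 and Ifnar2 against 8.3%. The Ifnb1 and Ifnar2 stretches overlapped no annotated exon. The Ifih1 and Ifnar1 stretches lay in exons of these genes, and the Tlr3 stretch lay in a Tlr3 exon that also overlaps an exon of the lncRNA gene Gm45542 on the other strand. The RefSeq start of Tlr3 is 700 bases downstream of the GENCODE gene start and that of Mavs 541, so these windows lie inside the annotated genes. The promoters of Mavs and Cgas held none of the motifs. The searched ISRE core fixes the gap between its GAAA runs, so GAAA runs at another spacing, as in the Ifnb1 stretch, went unmatched. A match is a run of letters and no measurement of binding.

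Nfkbiz itself, the targeted gene, had 69.1, 75.2 and 63.4 TPM (a transcript level scaled for length and depth) in Ctrl and 34.8, 34.7 and 35.1 TPM in Nfkbiz KO, so its reads were reduced but not lost. Between 32219900 and 44927203 reads were counted on genes per sample, and a count of 0 allows up to 0.0668 to 0.0931 CPM, which is reads scaled to a common library total (3 counts, counting error only). Of 10 melanocyte lineage and melanoma markers, 7 stayed under 1 TPM in every sample, among them the defining markers Sox10 and Tyr at 0, while Axl reached 909 TPM. The summed level of these markers ran from 718 to 854 TPM in Ctrl and from 926 to 942 TPM in Nfkbiz KO. Nearly all of it was Axl, whose log2 fold change was 0.14 (edgeR adjusted p = 0.089). Of 10 immune cell markers, 9 stayed under 1 TPM, with Cd3e, Itgax, Siglech and Nkg7 at 0, and their summed level was 1.83 to 2.57 TPM in Ctrl and 1.84 to 4.14 TPM in Nfkbiz KO, mostly Cd68. The summed level of 3 endothelial markers was 0.53 to 0.806 TPM in Ctrl and 1.31 to 1.83 TPM in Nfkbiz KO, nearly all of it Cdh5, and that of 2 erythroid markers 0 and up to 0.274 TPM. Whether these low signals have a part in the results was not tested. In bulk RNA, more expressing cells and more RNA per cell cannot be told apart.

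RNA of the ligand and of every sensor was higher in Nfkbiz KO than in Ctrl. Of the 10 genes, 7 rose (Ifnb1, Tlr3, Ifih1, Dhx58, Zbp1, Cgas and Mavs), 2 fell (Sting1 and Ifnar2), and Ifnar1 did not pass the test. The 5 sensors rose by 1.49-fold to 2.33-fold, whereas 1 adaptor rose and the other fell. All 10 had reads in every sample and passed the filter on low counts. A gene was called at an adjusted p of 0.05 or less in edgeR's quasi-likelihood test on read counts, with Benjamini-Hochberg adjustment over 14419 genes. Of all genes tested, 36.6% were called, 18.2% as higher and 18.4% as lower, and the median log2 fold change was -0.02. Over the 10 genes, the median log2 fold change was 0.60. CPM did not overlap between the groups for any of the 10, which held for 48.4% of all genes tested. For Ifnar1 the gap was smaller than the rounding, with 70.6 CPM as the nearest value in both groups.

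**Figure D1:**
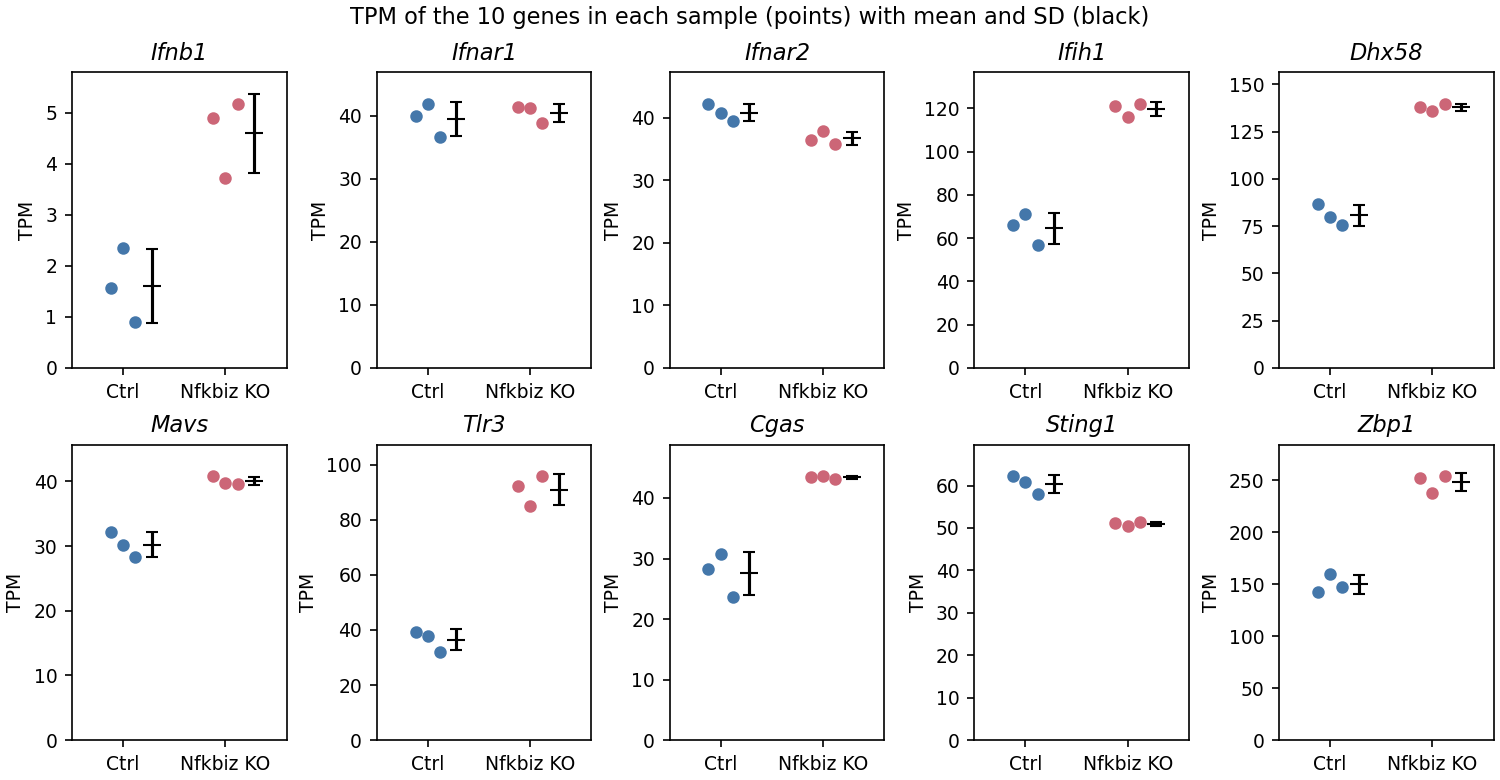
TPM (vertical axes, each from 0) of each gene in the 3 Ctrl (blue) and 3 Nfkbiz KO (red) samples, with the mean and SD of each group in black. The groups are apart for 9 genes, with Ifnb1 between 0.908 and 5.17 TPM and Zbp1 between 143 and 254 TPM, and they overlap for Ifnar1. The share of all genes whose groups are apart in TPM was not computed.

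Ifnb1 RNA was scarce in Ctrl and about 3-fold more abundant in Nfkbiz KO. The gene, a single exon of 750 bases on chromosome 4 (88440262 to 88441011, minus strand), had 14, 20 and 14 reads in Ctrl replicates 1, 2 and 3, and 43, 54 and 71 reads in Nfkbiz KO replicates 1, 2 and 3. Every Nfkbiz KO sample had more than 2 times the reads of any Ctrl sample. The TPM values were 1.56, 2.35 and 0.908 in Ctrl and 4.9, 3.72 and 5.17 in Nfkbiz KO, without overlap. The log2 fold change of the reads was 1.76 (95% interval 1.14 to 2.37, edgeR adjusted p = 0.00042), a 3.38-fold rise with an interval of 2.20 to 5.18. The interval is the widest among the 10 genes, as 48 reads in all Ctrl samples and 168 in all Nfkbiz KO samples stand behind it. On log2(TPM + 1), where low levels are compressed, limma gave a difference of 1.13 (adjusted p = 0.017).

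Apart from Ifnz, the other interferon genes were close to silent in both groups. Of 21 interferon genes listed (types I, II and III), 17 had 0 reads in every sample, among them most of the Ifna genes, the gamma interferon gene Ifng and the lambda interferon genes Ifnl2 and Ifnl3. Ifna4 had 1, 0 and 0 reads in Ctrl against 1, 0 and 1 in Nfkbiz KO, and Ifne, an epithelial type I interferon, had 2, 0 and 0 against 0, 0 and 2. Both were too low to be tested. Ifnz had 10, 16 and 20 reads in Ctrl against 9, 10 and 15 in Nfkbiz KO, with a log2 fold change of -0.46 (edgeR adjusted p = 0.39), and 60.0% of its reads were unique. Its 46 reads in all Ctrl samples were close to the 48 of Ifnb1. Ifnb1 was thus the 1 interferon gene of the list that was called, and every read counted on it was unique.

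The receptor genes did not follow the ligand. Ifnar1 encodes the chain that holds TYK2, and its reads were 2545, 2811 and 2990 in Ctrl and 2289, 2815 and 3040 in Nfkbiz KO. On the TPM scale it had 40.0, 41.9 and 36.6 in Ctrl and 41.4, 41.2 and 38.8 in Nfkbiz KO. These values overlapped. CPM (73.7, 73.7 and 70.6 against 70.3, 70.6 and 67.4) did not, but only by a gap smaller than the rounding. The log2 fold change of the reads was -0.07 (95% interval -0.18 to 0.05, edgeR adjusted p = 0.37), and it was 0.04 on both TPM scales tried, so no direction can be given. The gene lies on chromosome 16 (91281942 to 91305789, plus strand) and overlaps no other annotated gene.

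Ifnar2, which encodes the chain that binds JAK1 and STAT2, lies on the same strand of chromosome 16, from 91169618 to 91202723. It had 42.2, 40.7 and 39.5 TPM in Ctrl and 36.5, 37.8 and 35.8 TPM in Nfkbiz KO. All Nfkbiz KO samples were below all Ctrl samples. The log2 fold change was -0.25 (95% interval -0.38 to -0.12, edgeR adjusted p = 0.0051), or 0.84-fold. Unique reads made up 91.9% of its reads, the lowest share among the 10 genes, and the predicted protein-coding gene Gm21970 overlaps it on the same strand. With unique reads alone Ifnar2 was still called.

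**Figure D2:**
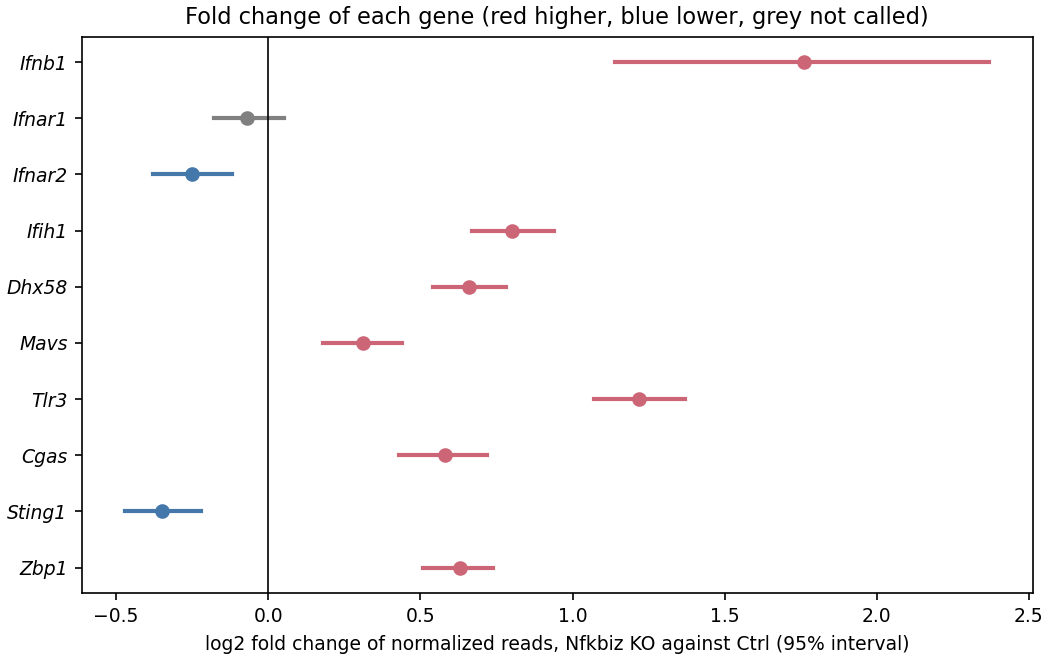
Log2 fold change of normalized reads in Nfkbiz KO against Ctrl (horizontal axis) for each gene, with its 95% interval from the edgeR fit of 3 against 3 samples. Red genes rose, blue genes fell and grey was not called, from -0.35 for Sting1 to 1.76 for Ifnb1.

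Among the sensors of double-stranded RNA, the endosomal receptor showed the larger change. Tlr3 (chromosome 8, 45848702 to 45864117, minus strand) had 39.4, 37.8 and 32.1 TPM in Ctrl and 92.2, 84.8 and 95.8 TPM in Nfkbiz KO. The lowest Nfkbiz KO sample was thus more than 2 times the highest Ctrl sample. The log2 fold change was 1.22 (95% interval 1.07 to 1.37, edgeR adjusted p = 6.7e-08), a 2.33-fold rise. Tlr3 was the 1 gene of the 10 that also passed the study's thresholds of a fold change above 2 and, read as TPM, a difference of means above 4, which 0.756% of all genes tested passed as higher. Ifnb1 passed the fold change but differed by 2.99 TPM.

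Ifih1 encodes MDA5, the sensor of long double-stranded RNA, and lies on chromosome 2 (62425714 to 62476607, minus strand). Its levels were 65.9, 71 and 56.6 TPM in Ctrl and 121, 116 and 122 TPM in Nfkbiz KO. Every Nfkbiz KO sample exceeded every Ctrl sample, and the log2 fold change was 0.80 (95% interval 0.67 to 0.94, edgeR adjusted p = 7.5e-07). Dhx58 encodes LGP2, which has no signalling domain of its own and modulates MDA5 and RIG-I, and lies on chromosome 11 (100585710 to 100595097, minus strand). It had 86.6, 80.0 and 75.5 TPM in Ctrl and 138, 136 and 139.7 TPM in Nfkbiz KO. The groups were apart, with a log2 fold change of 0.66 (95% interval 0.54 to 0.78, edgeR adjusted p = 2e-06). The antisense gene Dhx58os overlaps Dhx58, and with counting without regard to strand its reads cannot be told apart from those of Dhx58. Opposite-strand lncRNA genes likewise overlap parts of Ifnar2, Mavs, Tlr3 and Cgas.

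Mavs, the mitochondrial adaptor to which MDA5 and RIG-I pass their signal, rose too, with a smaller fold change than Ifih1. It had 32.2, 30.1 and 28.3 TPM in Ctrl and 40.8, 39.8 and 39.6 TPM in Nfkbiz KO. The groups did not overlap, and the log2 fold change was 0.31 (95% interval 0.18 to 0.44, edgeR adjusted p = 0.0016). Mavs lies on chromosome 2 from 131075442 to 131096740, on the plus strand.

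Of the DNA sensing pair, the enzyme rose and the adaptor fell. Cgas, which makes the cyclic dinucleotide second messenger, is on chromosome 9 (78337802 to 78350535, minus strand). It had 28.3, 30.7 and 23.7 TPM in Ctrl and 43.5, 43.6 and 43.1 TPM in Nfkbiz KO. The Nfkbiz KO samples were nearly equal and all above Ctrl, with a log2 fold change of 0.58 (95% interval 0.43 to 0.72, edgeR adjusted p = 2.9e-05). Sting1 encodes STING, the receptor of that messenger on the endoplasmic reticulum, and had 62.2, 60.8 and 58 TPM in Ctrl against 51.1, 50.5 and 51.3 TPM in Nfkbiz KO. Here every Nfkbiz KO sample was below every Ctrl sample. The log2 fold change was -0.35 (95% interval -0.47 to -0.22, edgeR adjusted p = 0.00043), or 0.79-fold.

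Zbp1 was the most abundant of the 10 genes in both groups. It lies on chromosome 2 (173033815 to 173060724, minus strand) and had 143, 160.0 and 147 TPM in Ctrl and 252, 238 and 254 TPM in Nfkbiz KO. No Ctrl sample reached the lowest Nfkbiz KO sample, and the log2 fold change was 0.63 (95% interval 0.51 to 0.74, edgeR adjusted p = 1.8e-06). Zbp1 overlaps no other annotated gene, and every read counted on it was unique.

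The order of levels among the genes, compared as mean TPM, was altered in the middle. In Ctrl it ran from Zbp1 (149.8 ± 9.11, SD, n = 3), Dhx58 (80.7 ± 5.58) and Ifih1 (64.5 ± 7.29) over Sting1 (60.4 ± 2.12) to Ifnar2, Ifnar1, Tlr3, Mavs and Cgas (27.6 ± 3.57), with Ifnb1 last (1.6 ± 0.72). The ranges of Ifih1 and Sting1 overlapped in Ctrl, as did those of each neighbouring pair from Ifnar2 down to Cgas. In Nfkbiz KO, Zbp1 (248 ± 8.73), Dhx58 (138 ± 1.62) and Ifih1 (119.7 ± 2.92) still led, followed by Tlr3 (90.9 ± 5.57), which had been below Sting1 and both receptor genes in Ctrl. Sting1 (50.9 ± 0.42) was above Cgas (43.4 ± 0.279), and Ifnar1 and Mavs were the only neighbours in that order whose ranges overlapped. Ifnb1 stayed last at 4.6 ± 0.773 TPM.

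Unequal change within a pair of partners can be read inside each sample, where depth cancels out. The pairs were chosen after their values were seen. The ratio of Cgas to Sting1 TPM was 0.455, 0.505 and 0.409 in Ctrl and 0.853, 0.863 and 0.84 in Nfkbiz KO. That of Tlr3 to its adaptor Ticam1 was 3.15, 2.69 and 2.43 against 6.89, 6.75 and 7.31. Both ratios were apart between the groups. The ratio of Ifih1 to Mavs was 2.05, 2.36 and 2 in Ctrl and 2.98, 2.92 and 3.07 in Nfkbiz KO, and that of Ifnar1 to Ifnar2 was 0.948, 1.03 and 0.927 against 1.13, 1.09 and 1.09. None of the 4 ratios overlapped between groups, but the share of other gene pairs for which this holds was not computed. In a two-sided exact permutation test on the log2 ratio of total gene reads, each pair gave p = 0.1. This is the smallest p that 3 samples against 3 allow, and it was 0.1 after adjustment over the 4 pairs. Because the pairs were picked with their values known, the test gives no support to the differences.

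**Figure D3:**
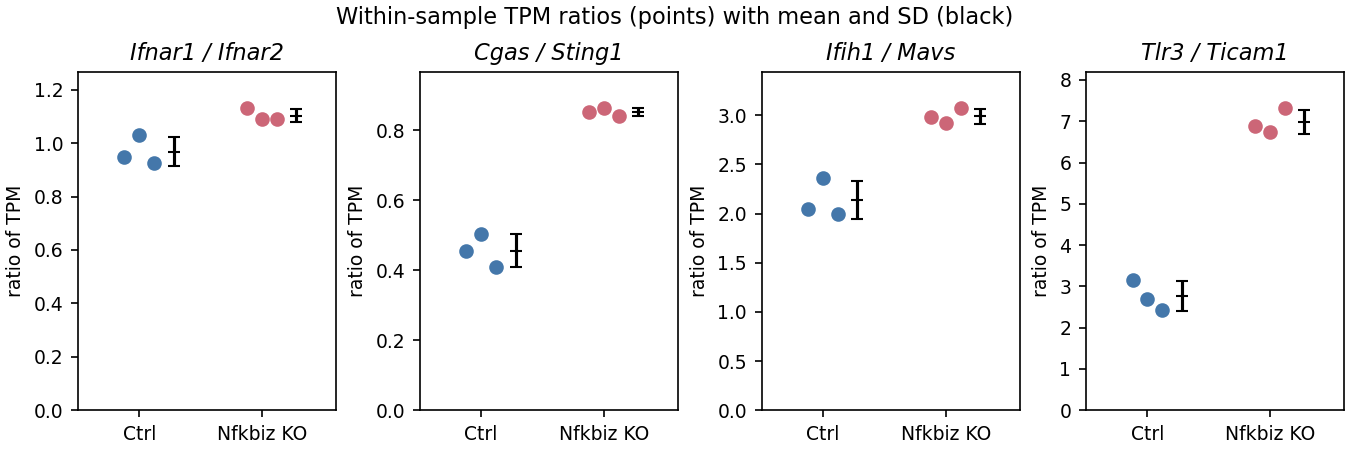
Ratio of TPM between partner genes (vertical axes, each from 0) in each of the 3 Ctrl (blue) and 3 Nfkbiz KO (red) samples, with mean and SD in black. The mean ratio of Cgas to Sting1 was 0.456 in Ctrl and 0.852 in Nfkbiz KO, and that of Tlr3 to Ticam1 was 2.76 and 6.98.

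The partners of these genes were taken from 7 lists of pathway genes, which hold 112 genes besides the 10. Of these, 85 were tested, of which 36 were higher, 9 lower and 40 not called, with a median log2 fold change of 0.10. Without Nfkbiz KO replicate 2 or replicate 3, 5 genes were lower. Of all genes tested, 18.2% were called higher and 18.4% lower. The lists were chosen with earlier results of these data known, and the difference between these shares was not tested.

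In the receptor signalling list, 3 genes rose, 5 fell and 9 were not called of 17 tested, with a median log2 fold change of -0.07. Without Ifnar1 and Ifnar2, 3 rose and 4 fell of 15 tested, with the same median. The kinases of the receptor were not called, with log2 fold changes of -0.00 for Jak1 (edgeR adjusted p = 0.98) and -0.08 for Tyk2 (edgeR adjusted p = 0.41), whose signs changed on the TPM scale. The transcription factor gene Stat2 rose by 0.23, while its partner Irf9 was at 0.08 (edgeR adjusted p = 0.26) and was called only on the TPM scale, at 0.17 with limma's adjusted p of 0.021. Usp18, whose product binds IFNAR2 and dampens its signalling, went from 313 ± 13.8 to 502 ± 14.9 TPM (n = 3 each), a log2 fold change of 0.59. Among the suppressors of cytokine signalling, Socs1 was at 0.07 (edgeR adjusted p = 0.65), with -0.01 when Ctrl replicate 2 was left out. Socs3, which acts mainly on receptors that use STAT3, fell from 130.0, 127 and 127 to 69, 65.9 and 60.5 TPM, the largest fall of the list at -1.07 (edgeR adjusted p = 8.1e-08). Jak2, a kinase of other cytokine receptors, fell by 0.38 on the log2 scale, and its call was lost on the TPM scale (limma adjusted p = 0.13). Il10rb (-0.25) and the gamma interferon receptor chain gene Ifngr1 (-0.18) were called lower, but neither call was kept with any Nfkbiz KO sample left out, where the values were -0.28 to -0.22 for Il10rb and -0.19 to -0.17 for Ifngr1. On log2(TPM + 1) they were at -0.13 and -0.07 and not called. The Il10rb call was also lost without Ctrl replicate 3 (-0.15), with DESeq2 (-0.24) and with unique reads (-0.21), and that of Ifngr1 with no filter on low counts (-0.17).

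The list for RNA sensing by RIG-I-like receptors had 13 genes that rose, 2 that fell and 7 not called of 22 tested, with a median of 0.30. Without Ifih1, Dhx58 and Mavs, 10 rose and 2 fell of 19 tested, with a median of 0.25. The gene for RIG-I, named Ddx58 in the files, is a relative of Ifih1, and its product senses RNA ends. It had 114, 123 and 100.2 TPM in Ctrl and 167, 159 and 163 TPM in Nfkbiz KO (log2 fold change 0.44, edgeR adjusted p = 5.5e-05). All Nfkbiz KO samples were above Ctrl. Rnf135, an E3 ligase that acts on RIG-I, rose by 0.61 on the log2 scale, the helicase Ddx60 by 0.67 and the zinc finger antiviral protein gene Zc3hav1 by 0.36. Below MAVS, the kinases differed. Tbk1 was at 0.02 (edgeR adjusted p = 0.8), and at -0.00 without Ctrl replicate 3. Ikbke, the gene of the related kinase IKKε, fell from 9.44, 9.48 and 9.64 to 6.38, 6.07 and 6.08 TPM, a log2 fold change of -0.77 (edgeR adjusted p = 9e-07), and Tbkbp1, a scaffold of TBK1, fell by 0.56. Of the transcription factors the kinases act on, Irf3 was at -0.06 (edgeR adjusted p = 0.55, with the opposite sign on the TPM scale), Irf7 rose from 421 ± 13.1 to 657 ± 6.86 TPM (0.55), and Irf5 rose by 1.17.

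Of 11 tested genes for endosomal Toll-like receptor sensing, 3 rose and 8 were not called, with a median of 0.15. Without Tlr3, 2 of 10 rose and the median was 0.10. Apart from Tlr3, the receptors of this compartment were barely present, with Tlr8 and Tlr9 at 0 reads, Tlr13 at up to 3 reads and Tlr7 at 5 to 16 reads per sample. Ticam1, the adaptor of TLR3, had 12.5, 14 and 13.2 TPM in Ctrl and 13.4, 12.6 and 13.1 TPM in Nfkbiz KO, which overlapped (log2 fold change of the reads -0.12, edgeR adjusted p = 0.27). Unc93b1, which carries these receptors to endosomes, rose with Tlr3, from 5.39, 6.42 and 5.42 to 13.2, 12.8 and 11.2 TPM (0.92, edgeR adjusted p = 1.2e-05). The lysosomal protease gene Ctsb, also on the list, rose by 0.73.

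Of the 26 genes of the cGAS and STING list, all tested, 15 rose, 3 fell and 8 were not called, with a median of 0.24. Without Cgas and Sting1, 14 rose and 2 fell of 24, with the same median. Trex1 and Enpp1, whose products limit the pathway, were both called higher. Trex1, a DNA exonuclease, had 105, 103 and 104 TPM in Ctrl and 155, 159 and 165 TPM in Nfkbiz KO (0.52, edgeR adjusted p = 2.9e-05). However, only 0.138% of its reads were unique, so that its counts are shared with another gene model and uncertain. Enpp1, whose product degrades the cyclic dinucleotide outside the cell, was counted 10, 10 and 17 times in Ctrl against 26, 37 and 52 times in Nfkbiz KO. Its log2 fold change was 1.58 (edgeR adjusted p = 0.0024) at under 1 TPM, and 0.28 on log2(TPM + 1). The RNA editing enzyme gene Adar was at 0.18 (edgeR adjusted p = 0.039), a call that was lost without any of the 3 Nfkbiz KO samples. Members of the interferon-inducible Ifi200 family followed Enpp1 in the size of the rise, with Ifi207 at 1.25, Ifi206 at 0.93, Ifi205 at 0.88 and Ifi209 at 0.66. These are close paralogs, and 79.3% of the Ifi205 reads were unique. Besides Sting1, the RNase H2 subunit gene Rnaseh2c (-0.29) and the inflammasome DNA sensor gene Aim2 (-0.25) fell. The Aim2 call was lost without Nfkbiz KO replicate 2 (-0.21) or replicate 3 (-0.25).

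**Figure D4:**
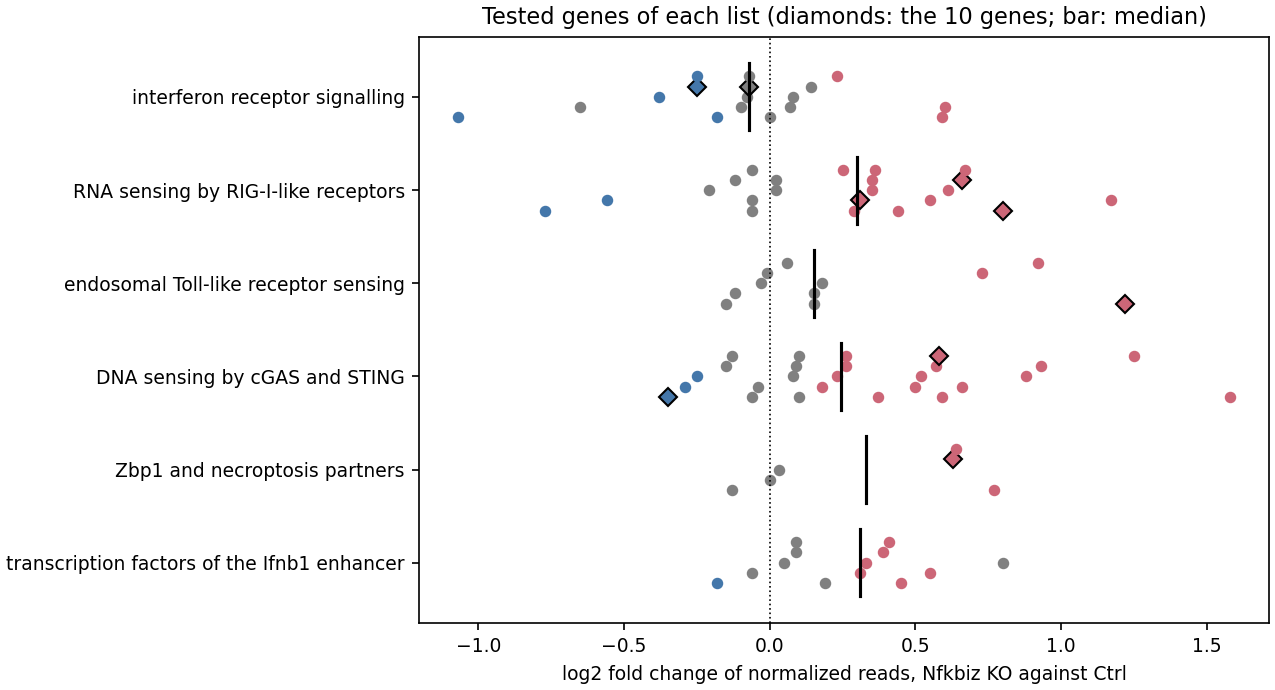
Log2 fold change of normalized reads (horizontal axis) of every tested gene in 6 lists of pathway genes, with the 10 genes as outlined diamonds, the median as a black bar and colours as called higher (red), lower (blue) or not called (grey). The medians run from -0.07 for receptor signalling to 0.33 for the list of Zbp1 and its partners, where it is 0.03 without Zbp1.

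Of the 6 tested genes of Zbp1 and its necroptosis partners, 3 rose and 3 were not called, with a median of 0.33. Without Zbp1 itself, 2 of 5 rose and the median was 0.03. Mlkl, the pore-forming executor of necroptosis, had 174, 183 and 168 TPM in Ctrl and 296, 292 and 299.7 TPM in Nfkbiz KO (0.64, edgeR adjusted p = 7.9e-07). Cflar, an inhibitor of caspase-8, rose by 0.77. Ripk3, the kinase that links ZBP1 to MLKL, was almost without reads, with 2, 1 and 0 in Ctrl and 0 in every Nfkbiz KO sample, and was not tested.

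Of the 13 genes of transcription factors and cofactors listed for the Ifnb1 enhancer, 6 rose, 1 fell and 6 were not called, with a median of 0.31. Irf1 had 66.9, 70.6 and 66.3 TPM in Ctrl and 101, 97.9 and 99.3 TPM in Nfkbiz KO (0.45, edgeR adjusted p = 2.2e-05). Jun, an AP-1 subunit, rose by 0.41, the coactivator gene Crebbp by 0.39 and Irf2 by 0.33. Nfkb1, which encodes an NF-κB subunit, was at -0.18 (edgeR adjusted p = 0.023). Its call was lost when any sample other than Ctrl replicate 3 was left out and on the TPM scale. Rel, the gene of another NF-κB subunit, was called higher at 0.31 (edgeR adjusted p = 0.027), and Rela was at 0.09 (edgeR adjusted p = 0.22). No alternatives are given for Rel and Rela.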

How the data were processed

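Total RNA of D4M-3A cells (3 Ctrl, 3 Nfkbiz KO) was sequenced as paired reads. Reads were mapped by the authors in CLC Genomics Workbench, who deposited, per sample, raw counts of total and unique gene reads, and TPM and RPKM from exon reads. The study's methods name GRCm39, whereas the submitters' processing notes name GRCm38. The annotation version is not given in the sources used here. Decimal commas were converted.

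Total gene reads were tested with edgeR 4.0.16 in R 4.3.3 (TMM, filterByExpr at its default minimum of 10 counts and 15 in total, quasi-likelihood test, Benjamini-Hochberg adjustment over 14419 genes). Alternatives used DESeq2 1.42.0, limma 3.58.1 on log2(TPM + 1) and log2(TPM + 0.1), a likelihood-ratio test, RLE factors, other filters (none, or 1 CPM in 3 samples), unique reads, a replicate block and each sample left out. Scripts were tested on simulated counts. Pairs of samples within a group differed beyond counting noise (chi-square per degree of freedom 28 to 71.4 in Ctrl and 3.49 to 6.24 in Nfkbiz KO).

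Named were the 10 genes, Nfkbiz, expressed interferon genes, 18 nearest partners (1 of which is not reported here) and, per list, up to 4 further called genes in each direction with the largest change. Other genes named were chosen after their values were seen. The genes, lists and tests were chosen with earlier results of these data known. Gene positions are from GENCODE on GRCm39, promoter sequences from RefSeq on GRCm38.p6, placed on GRCm39 by exact match. Figures were drawn with matplotlib 3.10.9 in Python 3.11.15.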

Additional observations from a re-analysis of the deposited data

How the results depend on the processing

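With 15 alternatives for each of the 10 genes, 148 of the 150 results kept their direction and their side of the threshold. The exceptions were Ifnar1 at 0.04 on log2(TPM + 1) and on log2(TPM + 0.1). The replicate numbers did not pair the samples (correlations of 0.037, -0.023 and 0.026), and with a replicate block the counts were again 7 higher and 2 lower, with Ifnb1 at 1.76. With the study's fold change and TPM difference added, 1 of the 10 genes was higher and 0 lower, against 109 and 149 of all genes. Over all genes, limma on log2(TPM + 1) gave 1327 lower calls and log2(TPM + 0.1) 1279, against 2647. The median log2 fold change of all genes was 0.06 and 0.08 on these scales, against -0.02 for the read counts. Pathway genes called lower ranged from 5 to 9 with each sample left out. Among uncalled partners, signs changed for Irf3 (0.05 on both TPM scales), Tyk2 (0.08 and 0.09 on these scales) and Jak1 (0.09 on both, 0.01 with RLE factors, DESeq2 and no filter). With each sample left out, Jak1 ran from -0.05 to 0.04, Tbk1 from -0.00 to 0.06 and Socs1 from -0.01 to 0.21. Ifnb1, Ifnz and Enpp1 rest on under 100 reads per sample, and Ifna4, Ifne, Tlr7 and Ripk3 were too low to test.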

Other observations

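The 2 read-based scales of Ifnb1 moved apart more than those of the other genes. Its RPKM, which counts exon reads, divided by its CPM, which counts all reads on the gene, was 1.11, 1.25 and 0.845 in Ctrl and 1.01, 0.755 and 0.906 in Nfkbiz KO. The highest of these values was 1.65 times the lowest, against 1.01 to 1.04 times for the other 9 genes. Ifnb1 has 1 exon in its gene model, and why its exon reads and gene reads diverge between samples was not tested. The log2 ratio of mean TPM for Ifnb1 was 1.52, below the 1.76 of the reads.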
